A study of Sus scrofa with 6 samples.

Results

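The genes described here encode the translation initiation factors (eIF) and elongation factors (eEF) of the cytosol, measured in the loin muscle of Wei and Yorkshire pigs. They were taken by name: every gene of the deposited table called EIF or EEF followed by a number, without the eIF2 kinases, the eIF4E-binding proteins and genes of the sex chromosomes. The rule gave 41 genes of the 25322 in the table. Of these 41, 39 passed the filter on low counts and were tested, and the remaining 2, EEF1A2 and EIF4E1B, had 0 counts in every library.

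RNA sequencing was done on longissimus dorsi, the long muscle of the back, in 3 libraries from Wei pigs and 3 from Yorkshire pigs. Wei pigs ate commercial feed and drank without restriction up to slaughter at 90 kg. Yorkshire pigs had similar rearing according to the labels, which give no weight for them. Sex, age and whether each library came from its own animal are not stated, and the spread behind each p-value is that between libraries, which may be technical. The library titles carry the codes YH for Wei and LWH for Yorkshire, which the labels do not explain.

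Total counts per library ranged from 15285197 to 22570075 in Wei and from 17876646 to 27096747 in Yorkshire, and the factor genes took between 1.16% and 1.57% of them in Wei and between 1.37% and 1.58% in Yorkshire. Muscle identity was plain: 8 of 10 muscle fibre markers were in the table, all 8 were tested, and their summed level was between 84416 and 153067 CPM (counts scaled to library size, with TMM factors) in Wei and between 131016 and 150381 CPM in Yorkshire. In all, 3 libraries stood apart. Wei replicate 1 differed most from the others, with a chi-square per degree of freedom of 61.67 to 135.6 against each of them, and had the lowest share of counts from ACTA1, skeletal muscle actin, at 3.77%, against 6.51% and 7.97% in the other Wei libraries and 7.88% to 8.76% in Yorkshire. Its summed fibre markers were also the lowest of the 6 libraries. Genes of the Y chromosome summed to 6901 counts in Wei replicate 2, with no other library above 14, and the summed level of 11 lymphocyte markers was 46.1 CPM in Yorkshire replicate 3, against 8.12 to 8.78 CPM in Wei and 11.1 and 13.8 CPM in the other Yorkshire libraries. In whole muscle, fewer cells of a type and less RNA per cell cannot be told apart.

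As background, translation starts when eIF2 carries the initiator tRNA to the small ribosomal subunit, eIF3 holds that complex together, and the eIF4 group binds the cap of the mRNA and unwinds its leader. The eEF1 complex then delivers each aminoacyl-tRNA and eEF2 moves the ribosome along by a codon. In muscle this machinery is the point where feeding, insulin and exercise set the rate of protein synthesis, mostly through phosphorylation of the factors, which mRNA counts do not measure.

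In Wei muscle EEF1A1, the carrier of aminoacyl-tRNA, was lower, and EIF4E3, an atypical cap-binding protein, was higher; the other 37 tested genes did not pass the threshold. The test was edgeR's quasi-likelihood test over all 13209 genes tested, with a Benjamini-Hochberg adjusted p under 0.05 as the threshold and fold changes given as Wei over Yorkshire. DESeq2, run as an alternative, called 6 of the 39, against 9.77% of all genes tested, and limma voom called 2, against 4.88%. The edgeR count of 2 in 39 stands at 5.13%, against 5.08% of all genes tested, a share near that background. By direction the background was 2.73% higher and 2.35% lower in Wei. The median log2 fold change of the 39 genes was -0.04, against -0.02 over all genes tested, and 34 of the 39, or 87.2%, lay within 0.5 of 0 on the log2 scale, against 72.9% of all genes tested. All 39 genes are shown with their intervals in the plot of log2 fold changes.

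**Figure D1:**
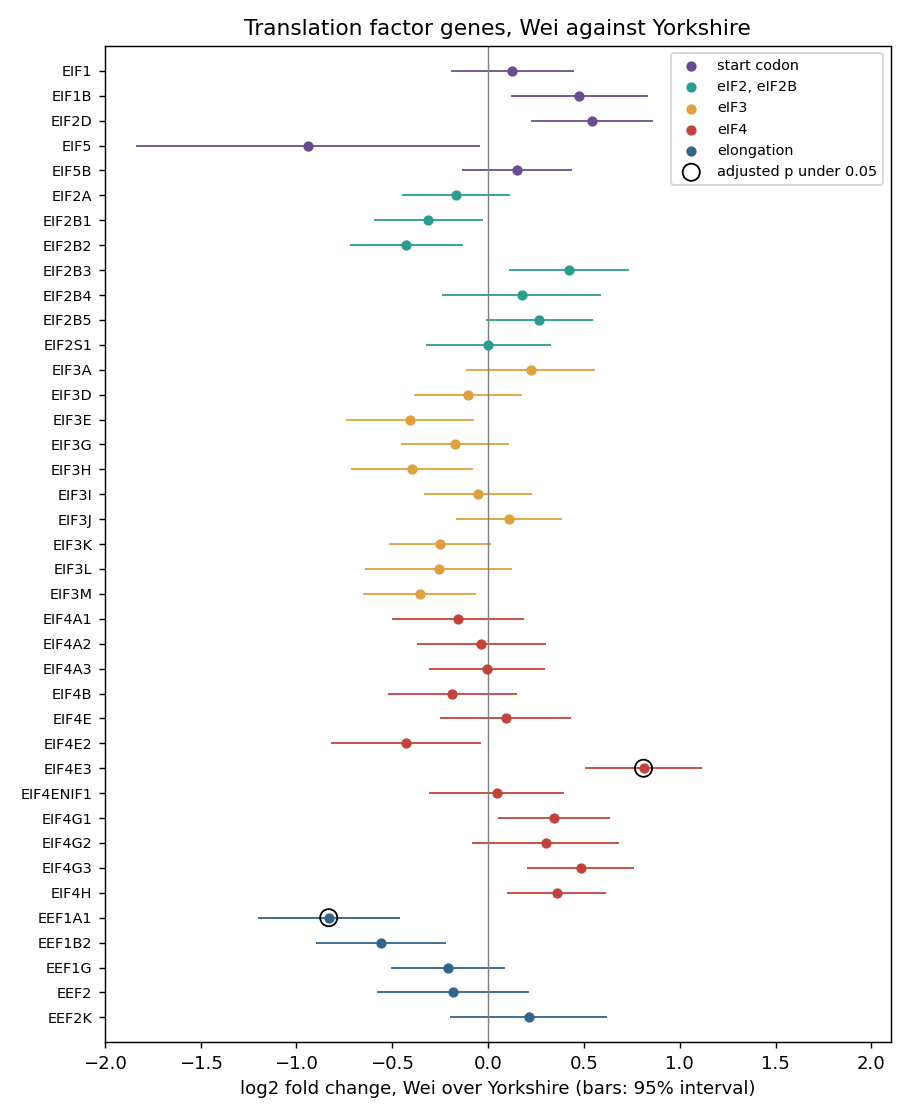
Log2 fold change (Wei over Yorkshire, x axis) of the 39 tested factor genes, with 95% intervals as bars and colours for the role of each gene. EEF1A1 at -0.83 and EIF4E3 at 0.81 are ringed as past the adjusted p of 0.05, and the eIF3 subunits lie mostly left of 0 while the eIF4G scaffolds lie right of it.

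Across the 39 genes, 19 had no overlap between the breeds, 8 with Wei higher and 11 with Wei lower. That was 48.7%, against 29.6% of all genes tested, which divided into 14.3% with Wei higher and 15.3% with Wei lower. At an unadjusted p under 0.05 there were 16, or 41.0%, against 23.3% of all genes tested. The factor genes are also more deeply counted than most: 36 of the 39 lie above the median average log2 CPM of all genes tested, 6.62 being their median and 3.11 that of all. The part of depth in these shares was not tested. In each role group the sign was mixed, as the plot of factor genes among all genes shows for the whole set.

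**Figure D2:**
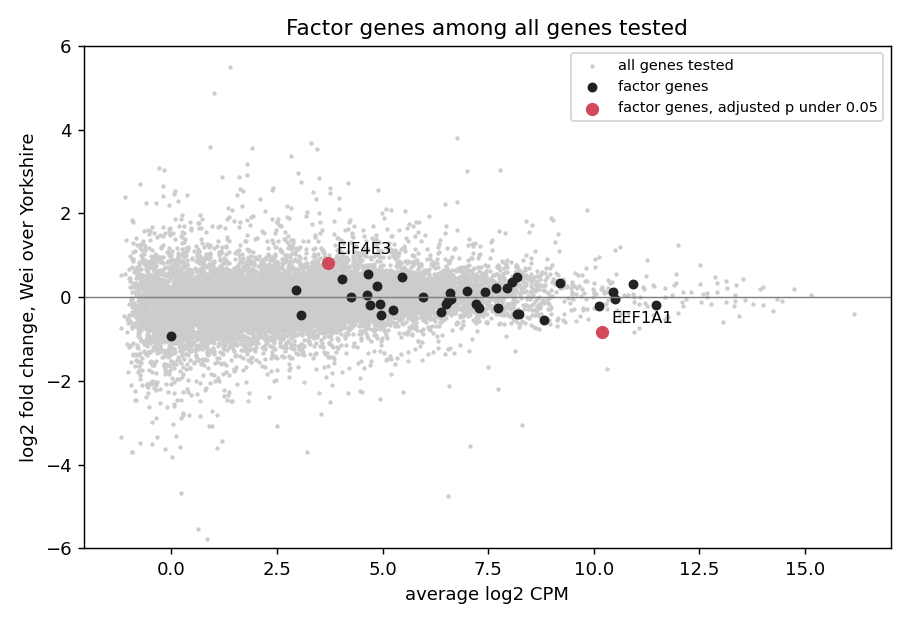
Log2 fold change (Wei over Yorkshire, y axis) against average log2 CPM (x axis) for all 13209 genes tested in grey, the 39 factor genes in black and those past the threshold in red; points beyond the axis are left out. Of the factor genes, 36 lie right of the median gene and 34 within 0.5 of 0; EIF4E3 (0.81) and EEF1A1 (-0.83) are labelled, and the black point at the far left is EIF5 (-0.94).

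Levels set against each other per gene length, as the authors' FPKM, spanned more than 3 orders of magnitude. EIF1, which guards the choice of start codon, had the highest mean level over the 6 libraries at 1073 FPKM, and the row named EIF5 had the lowest level above 0, at 0.806 FPKM. After EIF1 came EEF2 (892 FPKM), EIF4A2 (758 FPKM), EEF1A1 (677 FPKM), EIF4G2 (638 FPKM), EEF1G (636 FPKM) and EEF1B2 (416 FPKM). These 7 genes held 75.0% of the summed FPKM of the factor genes. All 4 tested elongation factor genes other than the kinase EEF2K were among the 7. The eIF2B genes and EIF2S1, the only eIF2 subunit within the rule, stood lower, between 9.11 and 20.1 FPKM. EIF2A, which is not an eIF2 subunit, had 59.0 FPKM. Outside the rule, the eIF2 subunits EIF2S2 and EIF2S3 had 133 and 27.8 FPKM. These FPKM values carry no correction for library composition, so the breeds are compared below on CPM, and on FPKM only as the share of a gene within a few related genes of the same library.

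**Figure D3:**
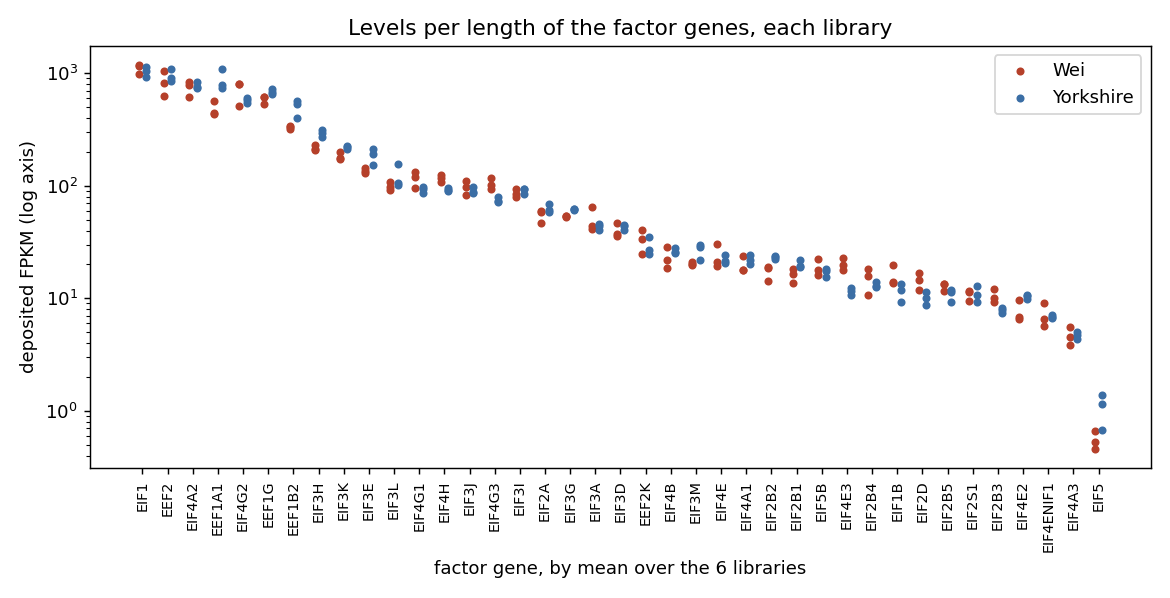
Deposited FPKM on a log axis for the 39 factor genes with counts, ordered by their mean over the 6 libraries, with 1 point per library and Wei points left of Yorkshire points. EIF1 leads at a mean of 1073 FPKM, and the 7 most abundant genes run down to EEF1B2 at 416 FPKM, followed by EIF3H at 255 FPKM.

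Among elongation factors, 1 of 5 tested genes passed the threshold as lower in Wei and none as higher. Over all genes tested, 2.35% passed as lower and 2.73% as higher. EEF1A1 (ENSSSCG00000004489, chromosome 1, 103474791 to 103477893 in Sscrofa10.2) had 898, 797 and 838 CPM in Wei replicates 1 to 3, against 1449, 1275 and 1781 CPM in Yorkshire replicates 1 to 3. Every Wei library was below every Yorkshire library, and the highest value was that of Yorkshire replicate 3. The means were 844 ± 50.7 CPM in Wei and 1502 ± 257 CPM in Yorkshire (SD, n = 3 each), and the log2 fold change was -0.83 with an SE of 0.16 (adjusted p = 0.0331, edgeR). The call rested on all 6 libraries. With any 1 of them left out, the log2 fold change lay between -0.94 and -0.69 and the adjusted p between 0.0592 and 0.0949. It was -0.87 with an adjusted p of 0.0592 without Wei replicate 1, -0.78 with 0.0753 without Wei replicate 2 and -0.69 with 0.0949 without Yorkshire replicate 3. Lymphocyte marker levels were highest in Yorkshire replicate 3 too, and their part in the EEF1A1 difference was not tested. EEF1A1 has many near-identical copies in mammalian genomes, so its reads could be split and the value is uncertain.

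EEF1B2, EEF1D and EEF1G form the exchange complex that reloads eEF1A with GTP. EEF1B2 had 337, 357 and 404 CPM in Wei, against 464, 610 and 541 CPM in Yorkshire. The breeds did not overlap, and the log2 fold change of -0.56 ± 0.15 missed the threshold (adjusted p = 0.0708). For EEF1G, the structural subunit, the libraries had 959, 1097 and 1027 CPM in Wei and 1207, 1173 and 1186 CPM in Yorkshire, again without overlap. Its log2 fold change was smaller, at -0.21 ± 0.13 (adjusted p = 0.364). EEF1D has no name in the deposited table and was named by its gene ID, outside the rule: it had 269, 310 and 307 CPM in Wei and 388, 339 and 348 CPM in Yorkshire, with an adjusted p of 0.232. So the 3 exchange subunits and EEF1A1 each had all Wei libraries below all Yorkshire libraries, by unequal amounts, and EEF1A1 alone passed the test. Within the rule, without EEF1D, that was 3 of 5 tested elongation genes, against 15.3% of all genes tested.

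EEF2, the translocation factor and the factor gene with the most counts, did not pass the threshold. It had 3050, 2686 and 2209 CPM in Wei, against 3070, 2694 and 3260 CPM in Yorkshire. The groups overlapped, and the log2 fold change was -0.18 with a 95% interval from -0.58 to 0.21 (adjusted p = 0.557). EEF2K, the calcium- and calmodulin-dependent kinase that inhibits eEF2, had 201, 274 and 184 CPM in Wei and 175, 177 and 217 CPM in Yorkshire. Its value was highest in Wei replicate 2, with overlap between the breeds and a log2 fold change of 0.21 (95% interval from -0.20 to 0.62). As a share of the summed FPKM of EEF1A1 and EEF2, EEF1A1 was 35.0%, 35.2% and 41.0% in Wei, against 46.4%, 46.4% and 50.01% in Yorkshire. That pair was chosen after its values were seen and was not tested.

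EEF1A2 encodes the eEF1A isoform that replaces EEF1A1 in adult skeletal muscle of mice and rats. The single row with this name (chromosome 13, 804554 to 805423) spans 870 bases and had 0 counts in each library, which allows up to 3 counts per library and covers counting error only. No share of EEF1A2 in total eEF1A could therefore be given, and the 0 describes that row of the annotation rather than the isoform in these muscles.

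**Figure D4:**
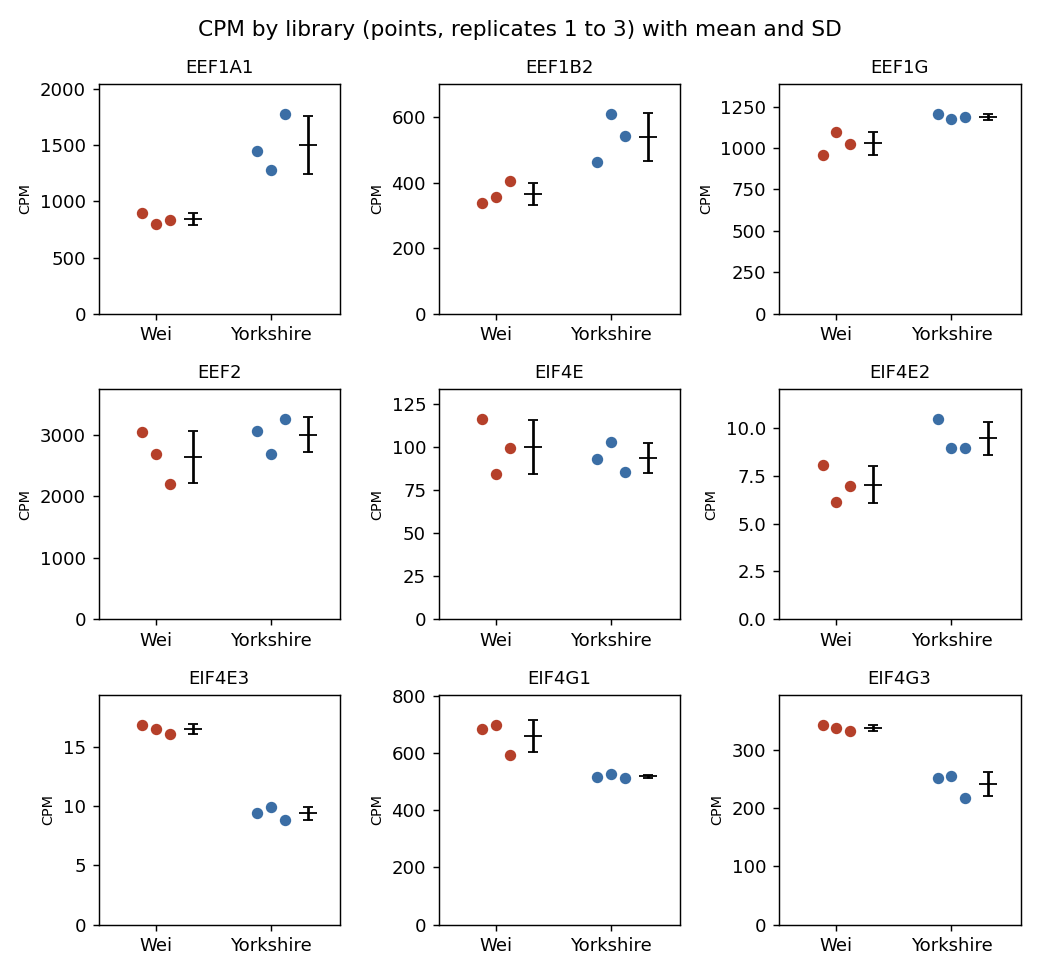
CPM after TMM scaling for 9 factor genes, with 1 point per library (Wei left, Yorkshire right) and the mean and SD of 3 libraries beside them. The Wei and Yorkshire points are apart for EEF1A1, EEF1B2, EEF1G, EIF4E2, EIF4E3, EIF4G1 and EIF4G3 and overlap for EEF2 and EIF4E.

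In the eIF4 group, 1 of 12 tested genes passed the threshold as higher in Wei and none as lower, against 2.73% and 2.35% of all genes tested. EIF4E3 (ENSSSCG00000011516, chromosome 13, 58776450 to 58817255) had 16.9, 16.5 and 16.1 CPM in Wei, against 9.38, 9.96 and 8.85 CPM in Yorkshire. The 3 values of each breed lay close together and far from those of the other breed. Means were 16.5 ± 0.41 CPM in Wei and 9.40 ± 0.55 CPM in Yorkshire (SD, n = 3 each), a log2 fold change of 0.81 ± 0.13 (adjusted p = 0.0199, edgeR). Leaving out each library in turn kept the log2 fold change between 0.77 and 0.85. The adjusted p passed without Wei replicate 2 (0.0414) or Wei replicate 3 (0.0483). It missed without Wei replicate 1 (0.0543) or Yorkshire replicates 1 (0.0555), 2 (0.0716) and 3 (0.0734).

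The other cap-binding genes did not pass the threshold, and whether they differ from EIF4E3 in fold change was not tested. EIF4E, the main cap-binding protein and the target of the eIF4E-binding proteins, had 116, 84.4 and 99.3 CPM in Wei and 93.05, 103 and 85.5 CPM in Yorkshire. The values interleaved, with a log2 fold change of 0.09 (95% interval from -0.25 to 0.43, adjusted p = 0.75). EIF4E2, a cap-binding protein that represses translation, had 8.05, 6.11 and 6.95 CPM in Wei, against 10.5, 8.96 and 8.96 CPM in Yorkshire. There was no overlap, and the log2 fold change of -0.43 ± 0.17 had an adjusted p of 0.18. Per gene length, EIF4E2 and EIF4E3 together made up 51.7%, 57.4% and 53.7% of the FPKM of the 3 cap-binding genes in Wei, against 51.1%, 47.5% and 50.6% in Yorkshire. These shares depend on the length used for each gene. In CPM, without length, EIF4E2 and EIF4E3 reached at most 10.5 and 16.9, and EIF4E had at least 84.4 in every library. The mean shares were 54.3% in Wei and 49.7% in Yorkshire, a difference of 4.58 percentage points (exact two-sided permutation test, p = 0.1, the smallest that 3 against 3 libraries allow). The share of EIF4E3 alone, looked at after its values were seen, was 36.2%, 43.1% and 38.7% in Wei and 25.5%, 26.3% and 26.5% in Yorkshire. EIF4E1B, known from oocytes of Xenopus and mouse, had 0 counts in each library, allowing up to 3 per library.

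The eIF4G scaffolds, which bridge the cap and the ribosome, had positive log2 fold changes, none past the threshold. EIF4G3 had 343, 337 and 333 CPM in Wei, against 252, 255 and 218 CPM in Yorkshire, a log2 fold change of 0.48 ± 0.12 (adjusted p = 0.0614). EIF4G1 had 682, 699 and 594 CPM in Wei, against 517, 525 and 514 CPM in Yorkshire, with 0.34 ± 0.13 on the log2 scale (adjusted p = 0.153). Both had every Wei library above every Yorkshire library. EIF4G2, a relative that lacks the eIF4E-binding site, had 2197, 2492 and 1736 CPM in Wei and 1753, 1800 and 1663 CPM in Yorkshire, and here Wei replicate 3 fell inside the Yorkshire range. Its log2 fold change was 0.30 ± 0.17. Within the 3 scaffolds the FPKM share of EIF4G1 was 12.7% ± 0.85 in Wei and 12.4% ± 0.395 in Yorkshire (SD, n = 3 each), a difference of 0.23 percentage points that an exact two-sided permutation test did not separate from 0 (p = 0.7). Without Wei replicate 3 that difference was -0.18 percentage points.

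EIF4H, a helper of the eIF4A helicase, had 288, 306 and 302 CPM in Wei, against 242, 230 and 228 CPM in Yorkshire, with no overlap, a log2 fold change of 0.36 ± 0.11 and an adjusted p of 0.107. The row named EIF4B, a related helper, spans only 1152 bases and had a log2 fold change of -0.19 ± 0.15. None of the 3 helicases passed, and the breeds overlapped for each. EIF4A2 had 1451, 1537 and 1285 CPM in Wei and 1510, 1565 and 1305 CPM in Yorkshire, a log2 fold change of -0.04 with a 95% interval from -0.37 to 0.30. EIF4A1 had between 26.3 and 31.1 CPM in Wei and between 27.3 and 37.3 CPM in Yorkshire. EIF4A2 made up 97.4% ± 0.35 of the FPKM of both in Wei and 97.2% ± 0.30 in Yorkshire (SD, n = 3 each), a difference of 0.20 percentage points (exact two-sided permutation test, p = 0.6). EIF4A3, the paralog that works in the exon junction complex, had a log2 fold change of -0.0047 (95% interval from -0.31 to 0.30). EIF4ENIF1, which carries eIF4E into the nucleus, had one of 0.05 (95% interval from -0.31 to 0.40).

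None of the 10 tested eIF3 subunits passed the threshold, and 8 of the 10 had a negative log2 fold change, with a median of -0.21. Over all genes tested, 6897 of 13209 were negative. The subunits EIF3B, EIF3C and EIF3F had no row by name, so the 10 are not the whole complex. At an unadjusted p under 0.05 there were 3 subunits, or 30%, against 23.3% of all genes tested. All 3 were lower in Wei: EIF3E, EIF3H and EIF3M. Over all genes tested, 1563 of 13209 were lower in Wei at that level. EIF3H (chromosome 4, 23327997 to 23448887) had 215, 247 and 288 CPM in Wei, against 325, 333 and 329 CPM in Yorkshire. Its log2 fold change was -0.40 ± 0.14 (adjusted p = 0.137). EIF3E had 230, 247 and 296 CPM in Wei, against 304, 353 and 369 CPM in Yorkshire, with -0.41 ± 0.15 (adjusted p = 0.144). EIF3M had 68.1, 73.9 and 77.0 CPM in Wei, against 82.0, 100.5 and 98.1 CPM in Yorkshire, with -0.36 ± 0.13 (adjusted p = 0.144). For these 3 and EIF3K (log2 fold change -0.25 ± 0.12) no Wei library reached the lowest Yorkshire library. That was 4 of 10 subunits, against 15.3% of all genes tested.

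The remaining eIF3 subunits overlapped between the breeds. EIF3L had 171, 214 and 197 CPM in Wei and 216, 197 and 283 CPM in Yorkshire, with the highest value in Yorkshire replicate 3. Its log2 fold change was -0.26, and -0.09 without Yorkshire replicate 3. EIF3E, EIF3H, EIF3K, EIF3L and EIF3M belong with EIF3A to the part of eIF3 built from PCI and MPN domain proteins, and EIF3A, its largest subunit, had the opposite sign, with 316, 243 and 243 CPM in Wei and 247, 212 and 228 CPM in Yorkshire (log2 fold change 0.22 ± 0.15). EIF3G and EIF3I, which join eIF3 through EIF3B, had -0.17 ± 0.12 and -0.05 ± 0.12. EIF3D, which can bind certain mRNA caps, had -0.10 ± 0.12, and EIF3J, a loosely bound subunit, had 0.11 ± 0.12.

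**Figure D5:**
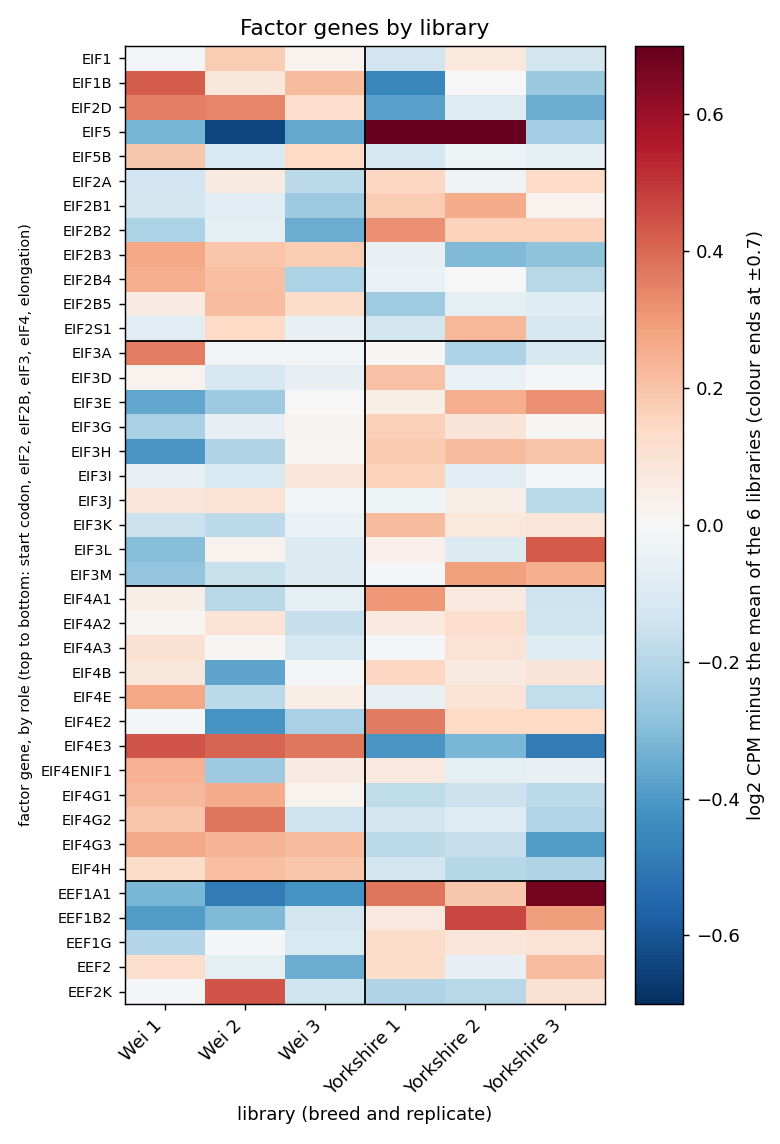
Log2 CPM minus the mean of the 6 libraries (colour) for the 39 tested factor genes in rows, grouped by role, and the 6 libraries in columns, Wei left and Yorkshire right. EIF4E3, EIF4G3 and EIF4H are above their mean in all 3 Wei libraries, and EEF1A1 and EEF1B2 are below it, with EEF1A1 highest in Yorkshire replicate 3.

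The eIF2 and eIF2B genes had no call among 7 tested and split in direction. eIF2B recycles eIF2 by exchanging GDP for GTP, through its catalytic subunits EIF2B3 and EIF2B5 and its regulatory subunits EIF2B1, EIF2B2 and EIF2B4. Of the regulatory subunits, EIF2B2 had 26.3, 29.3 and 24.1 CPM in Wei, against 38.4, 34.3 and 34.4 CPM in Yorkshire, with a log2 fold change of -0.43 ± 0.13 (adjusted p = 0.0961). EIF2B1 had 34.3, 35.5 and 31.5 CPM in Wei, against 42.6, 45.02 and 38.1 CPM in Yorkshire, with -0.31 ± 0.12 (adjusted p = 0.179). Wei libraries were thus below all Yorkshire libraries for both genes. EIF2B4, whose row spans 1361 bases, overlapped between the breeds and had 0.18 ± 0.18.

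The catalytic subunits had the opposite sign to EIF2B1 and EIF2B2, and the same sign as EIF2B4. EIF2B3 had 19.6, 18.7 and 18.4 CPM in Wei, against 15.7, 13.2 and 13.4 CPM in Yorkshire, a log2 fold change of 0.42 ± 0.14 (adjusted p = 0.109). EIF2B5 had 30.4, 33.9 and 31.9 CPM in Wei, against 24.5, 27.8 and 27.5 CPM in Yorkshire, with 0.27 ± 0.12 (adjusted p = 0.232). Neither overlapped between breeds, and neither passed. Of the 7 eIF2 and eIF2B genes, 2 had no overlap with Wei higher and 2 with Wei lower. Over all genes tested the shares were 14.3% and 15.3%. EIF2S1, the eIF2 subunit that is phosphorylated under stress, had 58.8, 68.2 and 59.9 CPM in Wei and 56.6, 72.7 and 57.3 CPM in Yorkshire, a log2 fold change of 0.0020 (95% interval from -0.32 to 0.33). EIF2A, a separate protein that can bring initiator tRNA without eIF2, had -0.17 ± 0.12.

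Among the 5 factors of start codon choice and subunit joining, none passed. EIF2D, which can load tRNA without GTP and helps to recycle ribosomes, had 31.4, 31.2 and 26.9 CPM in Wei, against 19.0, 23.1 and 19.4 CPM in Yorkshire. Every Wei library was above every Yorkshire one, with a log2 fold change of 0.54 ± 0.14 and an adjusted p of 0.064. EIF1B, a close relative of EIF1, had 57.7, 45.4 and 50.1 CPM in Wei, against 31.3, 42.9 and 36.0 CPM in Yorkshire (log2 fold change 0.48 ± 0.16, adjusted p = 0.114). EIF1 itself had 1382, 1583 and 1421 CPM in Wei and 1273, 1468 and 1279 CPM in Yorkshire, with overlap and 0.13 ± 0.14. EIF5B, the GTPase of subunit joining, had 0.15 ± 0.13. The row named EIF5 lies on an unplaced scaffold, spans 1308 bases and had 11, 8 and 13 counts in Wei, against 34, 27 and 19 counts in Yorkshire. Its log2 fold change of -0.94 ± 0.39 had an adjusted p of 0.198 and rests on 112 counts in all.

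Mean log2 CPM by role group was taken in each library, as a description. Over the 5 elongation genes it was 9.47, 9.54 and 9.40 in Wei and 9.73, 9.73 and 9.91 in Yorkshire. Over the 10 eIF3 subunits it was 7.22, 7.25 and 7.32 in Wei and 7.44, 7.40 and 7.44 in Yorkshire. The 12 eIF4 genes went the other way, with 6.71, 6.56 and 6.56 in Wei and 6.53, 6.51 and 6.39 in Yorkshire. The eIF2 and eIF2B genes overlapped, with 4.82 to 5.02 in Wei and 4.88 to 4.96 in Yorkshire. So did the 5 start codon and subunit joining genes, with 5.61, 5.46 and 5.51 in Wei and 5.39, 5.62 and 5.28 in Yorkshire. Over all 39 factor genes the mean was 6.67 to 6.73 in Wei and 6.70 to 6.76 in Yorkshire. Over all genes tested the mean was 3.11 to 3.15 in Wei and 3.15 to 3.22 in Yorkshire.

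Other genes of the pathway were taken from 10 lists, with 157 rows tested, where a gene can have more than 1 row. Of these 2 were higher and 10 lower in Wei, or 7.64% called, against 5.08% of all genes tested, of which 2.73% were higher and 2.35% lower. All 10 lower genes were cytosolic ribosomal proteins, 16.7% of the rows tested in that list, whose 60 tested rows all had a negative log2 fold change, with a median of -0.41. They were RPL9, RPL17, RPL26, RPL32, RPL34, RPL35A, RPS3A, RPS4X and 2 rows named RPS16. In 51 of the 60 rows, or 85%, every Wei library was below every Yorkshire library, against 15.3% of all genes tested. In 43 rows the unadjusted p was under 0.05, all lower in Wei, against 23.3% of all genes tested in either direction. RPL17 had the smallest adjusted p, 0.0316, with 161, 168 and 180 CPM in Wei, against 242, 274 and 272 CPM in Yorkshire. Like the mRNAs of EEF1A1, EEF1B2, EEF1G and EEF2, ribosomal protein mRNAs of mammals start with a 5′ terminal oligopyrimidine tract. Ribosomal protein genes have many processed copies, so single values are uncertain. Of the 10, 2 passed with scaling by library size alone and 3 with the replicate block. With libraries left out in turn, the count of lower genes over all 10 lists was 0 or 1.

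The 2 genes higher in Wei came from the lists of eIF2 kinases and phosphatase and of integrated stress response targets. PPP1R15A, the inducible subunit of the eIF2 phosphatase, had 97.4, 103 and 41.4 CPM in Wei, against 37.4, 18.4 and 18.2 CPM in Yorkshire. It was the only one of 10 rows in the list of eIF2 kinases and phosphatase to pass, with a log2 fold change of 1.71 ± 0.39 and an adjusted p of 0.0468. Of those rows 2 were EIF2AK2, and EIF2AK4 had none. CEBPB, a transcription factor listed here among targets of the integrated stress response, had 31.8, 48.2 and 46.8 CPM in Wei, against 17.9, 22.6 and 24.9 CPM in Yorkshire (log2 fold change 0.96 ± 0.20, adjusted p = 0.0361). It was the only one of 11 tested genes of that list to pass. Of the 11, 5 had a positive and 6 a negative log2 fold change. ATF4 had 3567, 2199 and 2830 CPM in Wei, against 3885, 3839 and 3959 CPM in Yorkshire (-0.44 ± 0.20). PHGDH, at low counts, had -2.06 ± 0.52. For ATF4 and PHGDH every Wei library was below every Yorkshire library. For PPP1R15A and CEBPB the Wei values were above the Yorkshire values, and both are also known as immediate responders to many other stimuli. PPP1R15A passed with 2 of the 6 libraries left out, Wei replicate 3 or Yorkshire replicate 1, and its adjusted p reached 0.16 among the rest, and it missed the threshold with limma voom. CEBPB passed without Wei replicate 1 and its adjusted p went up to 0.121 otherwise.

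In the other 7 lists, with edgeR's quasi-likelihood test, no gene passed. An unadjusted p under 0.05 was reached by 23.3% of all genes tested. In the list of cap-binding inhibitors and MNK kinases it was reached by 3 of 15 genes, EIF4EBP1, PABPC1 and LARP4. That list also holds poly(A)-binding proteins and their partners, and neither MNK gene was among the 3. Of 13 mTORC1 and S6 kinase genes 7 reached it, 4 higher and 3 lower in Wei. RPS6, 1 of those 3, is also among the ribosomal protein rows. The same level was reached by 1 of 8 termination and recycling genes and 3 of 10 ribosome quality control and GCN genes. It was reached by 0 of 2 hypusine enzymes and 1 of 9 mitochondrial translation factors. In the list of cytosolic aminoacyl-tRNA synthetases, with AARS and AARS1 as separate rows, 1 of 20 rows reached it. The smallest p in each list belonged to EIF4EBP1 (log2 fold change -0.48 ± 0.15), which sequesters eIF4E, MLST8 (0.79 ± 0.20), an mTOR subunit, GSPT1 (0.42 ± 0.12), the release factor eRF3, ABCF1 (0.38 ± 0.12), DHPS (0.19 ± 0.13), TUFM (0.39 ± 0.14), the mitochondrial counterpart of eEF1A, and IARS1 (0.33 ± 0.12). EIF4EBP1 had 34.5, 31.3 and 34.7 CPM in Wei, against 45.2, 55.1 and 40.3 CPM in Yorkshire, with an adjusted p of 0.0951. MLST8 had 11.5, 11.2 and 15.3 CPM in Wei, against 7.46, 8.52 and 6.08 CPM in Yorkshire, with an adjusted p of 0.0565. The breeds did not overlap for either gene.

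Markers of other cells were set beside these results. The 8 rows of fibroblast markers in the table included both of FBLN1 and none of COL1A1. All 8 had a negative log2 fold change, with DPT alone lower past the threshold. They summed to 553, 1558 and 1233 CPM in Wei and 2032, 3363 and 3058 CPM in Yorkshire. Of these rows, 4 had an unadjusted p under 0.05. All 6 tested lymphocyte markers had a negative log2 fold change, none past the threshold, and 5 had an unadjusted p under 0.05. For 4 of the 6, every Wei library was below every Yorkshire library, against 15.3% of all genes tested. The 10 macrophage markers summed to 43.0 to 47.3 CPM in Wei and to 40.3, 46.8 and 155 CPM in Yorkshire, the last in replicate 3. All 8 tested macrophage markers had a negative log2 fold change, none past the threshold. C1QB alone had an unadjusted p under 0.05 and no overlap. Its values were 3.73, 3.12 and 3.18 CPM in Wei, against 6.33, 5.31 and 15.3 CPM in Yorkshire. Endothelial markers (7 in the table, 197 to 268 CPM in Wei, 236 to 263 CPM in Yorkshire), Schwann cell markers (5, 19.2 to 30.5 CPM in Wei, 18.1 to 25.4 CPM in Yorkshire) and red blood cell markers (3, 9.25 to 15.6 CPM in Wei, 8.74 to 16.1 CPM in Yorkshire) overlapped between the breeds in their sums. The 9 rows of smooth muscle and pericyte markers summed to 206, 244 and 465 CPM in Wei and 377, 349 and 292 CPM in Yorkshire, with ACTA2 and TAGLN highest in Wei replicate 3. None passed the threshold of edgeR's test, but 6 of the 9 had an unadjusted p under 0.05, all lower in Wei, against 23.3% of all genes tested. In 4 rows, 1 of NOTCH3, both of PDGFRB and RGS5, every Wei library was below every Yorkshire library. The 6 adipocyte markers summed to 451 to 477 CPM in Wei and 273 to 325 CPM in Yorkshire, but PLIN4 made up most of both sums, with 453, 408 and 456 CPM in Wei against 308, 254 and 249 CPM in Yorkshire. PLIN4 alone passed the threshold, and of the other 4 tested adipocyte markers 3 had a negative log2 fold change and all overlapped between the breeds. No marker row of these lists was at 0 in all libraries. Whether the share of these cells bears on the elongation factor, eIF3 or ribosomal protein values was not tested.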

How the data were processed

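RNA from longissimus dorsi of 3 Wei and 3 Yorkshire libraries was extracted with TRIZOL and prepared with a TruSeq RNA kit, per the labels' protocols. Named in the submitters' processing notes, without a step, are edgeR, TopHat2 2.0.9, CASAVA 1.7 and, as the build, Sscrofa10.2. The counter, annotation release and strand setting were not given in the sources used here, so overlapping genes cannot be told apart. The authors deposited 1 table with raw counts and FPKM values for 25322 genes, per the file headers. Counts were tested and FPKM served for levels between genes and for shares within paralogs. Of 9160 rows without a symbol, 1774 were named by gene ID from a reference table, none of them a member.

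The filter was filterByExpr at a minimum count of 10 and the scaling TMM, and breed was tested with edgeR 4.0.16 (glmQLFit and glmQLFTest, R 4.3.3) with Benjamini-Hochberg adjustment over 13209 genes. Each SE came from dividing the size of the log2 fold change by the root of its F statistic. Between libraries of a breed, the common biological variation was 21.8%. Shares of paralogs were compared by exact permutation. The procedure was tested on simulated counts. Intervals and floors cover counting error or library spread only.

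Members and lists were chosen with earlier results of these data known. The rule for named genes took every member past the threshold, the 2 most abundant and the smallest p of each role group, a fixed set, and the calls or smallest p of each related list; other members were described after their values were seen. EIF5A had no row by name and is not analysed here. Alternatives were other scalings, filters, DESeq2 1.42.0, limma voom 3.58.1, a replicate block and leaving out each library. Figures were drawn with matplotlib 3.10.9.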

Additional observations from a re-analysis of the deposited data

Results flagged for a closer look

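Y chromosome genes, which no comparison here uses, had 6901 counts in Wei replicate 2, above the level of every other library: Wei replicates 1 and 3 had 9 and 14, and Yorkshire replicates 1 to 3 had 10, 8 and 10. Without Wei replicate 2, EIF4E3 passed the threshold (log2 fold change 0.82, adjusted p = 0.0414) and EEF1A1 did not (-0.78, adjusted p = 0.0753).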

How the results depend on the processing

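Other scalings and filters, leaving out mitochondrial genes and ACTA1, and limma voom each gave 1 factor gene higher and 1 lower, as did the replicate block, and shifted the all-gene median by no more than 0.02. DESeq2 called 4 higher (EIF4E3, EIF4G3, EIF4H and EIF2D) and 2 lower (EEF1A1 and EEF1B2), with 1291 calls over all genes (9.77% of those tested, in place of 671), and 4 higher and 20 lower in the related lists; the cause was not tested. Leaving out 1 library gave 0 to 1 factor genes higher and 0 lower in each case, 60 to 394 calls over all genes, and 0 to 1 higher and 0 to 1 lower in the related lists, with fewer samples in each fit. The median of the factor genes stayed between -0.067 and 0.032. The difference in the EIF4G1 share ranged from -0.18 to 0.67 percentage points.

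Of 39 genes, 33 kept their sign under every alternative that tested them (EIF5 was not tested with the 1 CPM filter), and the 6 others lay near 0. EIF2S1 was at -0.020 with library size alone and -0.0080 with the 1 CPM filter, and between -0.062 and 0.127 with a library left out. EIF4A3 was at 0.0054 with RLE, 0.0062 without a filter, 0.0015 without mitochondrial genes and ACTA1 and 0.0057 with DESeq2, and between -0.054 and 0.055 with a library left out. Leaving out a library also turned EIF3I (-0.107 to 0.020), EIF4A2 (-0.106 to 0.035), EIF4E (-0.022 to 0.208) and EIF4ENIF1 (-0.067 to 0.176).

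With the replicate block, EIF4E3 had an adjusted p of 0.0395 and EEF1A1 one of 0.0491, with 477 calls over all genes. Across genes, the deviations of libraries with replicate numbers 1, 2 and 3 had correlations of 0.137, -0.0066 and 0.022, and 2 of 6 libraries correlated best with their own number. With 3 libraries per breed, this check cannot settle whether the numbers mark a pairing or a shared batch. With edgeR at this depth and 3 libraries per breed, no factor gene under 0.5 on the log2 scale was called, whereas DESeq2 called EIF4G3 (adjusted p = 0.0106) and EIF4H (0.0493).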

Other observations

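The name rule left out the 2 factor genes of the X chromosome. EIF2S3, the eIF2 subunit that binds GTP and initiator tRNA, had 147, 87.5 and 141 CPM in Wei replicates 1 to 3, against 158, 188 and 192 CPM in Yorkshire, a log2 fold change of -0.52 ± 0.20 (adjusted p = 0.175, edgeR). EIF1AX, which works with EIF1 in start codon choice, had 264, 163 and 224 CPM in Wei and 181, 260 and 215 CPM in Yorkshire (log2 fold change -0.0089, adjusted p = 0.985). For both genes the lowest of the 6 values was that of Wei replicate 2, the library with Y chromosome counts.

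Besides EEF1D, 3 factor genes were named by gene ID alone. EIF2S2, the eIF2 beta subunit, had 182, 190 and 204 CPM in Wei and 185, 213 and 192 CPM in Yorkshire. EIF6, which keeps the ribosomal subunits apart, had 15.7, 15.1 and 17.0 CPM in Wei and 17.7, 16.4 and 13.4 CPM in Yorkshire. EIF1AD had 9.94, 4.88 and 7.05 CPM in Wei and 8.52, 8.46 and 8.23 CPM in Yorkshire. None of the 3 passed the threshold of edgeR's test, and none had an unadjusted p under 0.05.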
